A study of Mus musculus with 6 samples.

Results

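The catalytic and structural noncoding RNAs of RNase MRP (Rmrp), RNase P (Rpph1), the Ro ribonucleoprotein (Rny1 and Rny3), telomerase (Terc) and the 7SK ribonucleoprotein (Rn7sk) were followed in skin of female BALB/c mice, a standard inbred strain, aged 6 to 8 weeks. The members were the 6 rows of the count table, out of 27179, whose NCBI gene numbers carry these symbols. They were chosen as a set by low counts in the control library, although Terc was not lowest there. Their values against control are therefore given as a description and without a test. All 6 passed the filter on low counts.

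There were 4 groups. Skin exposed to bleomycin and given EHP-101 (BLM_EHP) had 1 library, skin exposed to bleomycin and given ajulemic acid (BLM_AJA) had 3, skin exposed to bleomycin alone (BLM) had 1, and control skin had 1. Bleomycin is a DNA-damaging drug used to model the skin fibrosis of scleroderma in mice, EHP-101 is a lipid formulation, taken by mouth, whose active compound VCE-004.8 is an aminoquinone made from cannabidiol, and ajulemic acid is a synthetic cannabinoid. The labels give no dose, route or time, nor whether libraries came from single or pooled animals, so the spread between libraries may be technical.

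RNase P removes the 5′ leaders of transfer RNA precursors, and RNase MRP, which shares most of its proteins, cleaves the ribosomal RNA precursor. Y RNAs bind Ro60, a protein of RNA quality control, the RNA of telomerase carries the template for telomere repeats, and 7SK RNA holds the elongation factor P-TEFb in an inactive complex through HEXIM proteins. RNA polymerase III makes all of these RNAs but Terc, which RNA polymerase II makes. In people, Th/To autoantibodies against RNase P and RNase MRP occur in systemic sclerosis, Ro60 is a classic autoantigen, and mutations of RMRP cause cartilage-hair hypoplasia.

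The RNAs themselves are short and structured. Those shown here are GENCODE vM21 transcripts on GRCm38, written as DNA, and are shown because the members differ in length and structure. Both Y RNAs were printed whole, Rny1 from chr6:47788069-47788180 on the minus strand and Rny3 from chr6:47781624-47781725 on the plus strand. Capitals mark their longest shared run, 12 bases, and each ends in 4 T, the usual stop signal of RNA polymerase III.
Rny1: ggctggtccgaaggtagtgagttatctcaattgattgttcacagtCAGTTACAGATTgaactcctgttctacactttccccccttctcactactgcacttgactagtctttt
Rny3: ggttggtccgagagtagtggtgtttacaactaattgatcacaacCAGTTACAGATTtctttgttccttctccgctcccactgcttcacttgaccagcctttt
The RNAs of the 2 RNases come from chr4:43492788-43493058 (Rmrp) and chr14:50807468-50807767 (the first 300 bases of Rpph1), both on the minus strand. Their longest shared run, in capitals, was 9 bases.
Rmrp: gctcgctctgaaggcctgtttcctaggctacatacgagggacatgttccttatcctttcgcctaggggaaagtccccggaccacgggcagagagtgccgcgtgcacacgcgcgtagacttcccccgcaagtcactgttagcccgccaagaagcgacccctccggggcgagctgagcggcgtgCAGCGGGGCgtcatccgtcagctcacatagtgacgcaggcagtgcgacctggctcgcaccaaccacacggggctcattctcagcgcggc
Rpph1: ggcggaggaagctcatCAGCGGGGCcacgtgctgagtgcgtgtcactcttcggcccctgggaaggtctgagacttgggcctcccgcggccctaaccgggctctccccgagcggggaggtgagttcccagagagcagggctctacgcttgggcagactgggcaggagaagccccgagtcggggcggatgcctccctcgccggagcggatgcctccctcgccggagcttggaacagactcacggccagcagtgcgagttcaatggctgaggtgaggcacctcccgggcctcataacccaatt
For Terc the first 100 bases of the counted interval are shown (chr3:96414734-96414833, minus strand), with the telomere template in capitals. For Rn7sk the first 100 bases are shown (chr9:78175534-78175633, minus strand), with each GATC, the motif of the HEXIM binding site, in capitals; it occurred 3 times there.
Terc: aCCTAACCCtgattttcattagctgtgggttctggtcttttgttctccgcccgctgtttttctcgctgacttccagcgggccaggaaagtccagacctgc
Rn7sk: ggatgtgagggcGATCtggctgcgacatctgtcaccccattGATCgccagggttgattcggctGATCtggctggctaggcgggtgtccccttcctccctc

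In the deposited mm10 annotation no other counted gene shared an exon base with any member. The counted intervals were 101 bases for Rny3, 111 for Rny1, 275 for Rmrp, 325 for Rpph1, 332 for Rn7sk and 397 for Terc. The genome holds sequences related to several of these RNAs, and the sources used here do not say how reads matching in several places were counted, so the levels are uncertain to that extent. GENCODE places Rpph1 within Ccnb1ip1 on the same strand. Levels are given below in CPM, which are counts scaled to library size.

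The libraries held 14291592 to 19837682 counts. The 2 mitochondrial ribosomal RNAs made up 17.9% of all counts in BLM_EHP, 17.3, 26.1 and 18.5% in BLM_AJA, 19.7% in BLM and 26.5% in control. All 5 epidermal and all 5 dermal fibroblast markers were above 0 in every library. The epidermal markers summed to 6382 CPM in BLM_EHP, 10492, 9571 and 6089 CPM in BLM_AJA, 10373 CPM in BLM and 6013 CPM in control. The 3 macrophage markers summed to 140 CPM in BLM_EHP, 195, 225 and 144 in BLM_AJA, 213 in BLM and 150 in control. The fibroblast markers summed to 2907 CPM in BLM_EHP, 3014, 3971 and 2576 CPM in BLM_AJA, 5289 CPM in BLM and 5102 CPM in control. The 3 adipocyte markers summed to 719 CPM in BLM_EHP, 499, 558 and 415 CPM in BLM_AJA, 372 CPM in BLM and 1246 CPM in control, the highest. The 5 skeletal muscle markers summed to 2751 CPM in BLM_EHP, 1655, 2691 and 1627 CPM in BLM_AJA, 3292 CPM in BLM and 1619 CPM in control, and 4 of them were lowest in control. The 10 hepatocyte markers, which skin should lack, summed to 585 CPM in BLM_EHP, 12.0, 20.3 and 6.88 CPM in BLM_AJA, 623 CPM in BLM and 919 CPM in control. The hepatocyte sum was low in BLM_AJA alone. The part of these marker levels in the results was not tested.

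There were 5 members, Rmrp, Rpph1, Rny1, Rny3 and Rn7sk, that were lowest in the control library, and Terc was not. Across all 17377 genes tested, control was the lowest library for 22%. Members at least 2-fold higher than in control, by the fitted log2 fold change, numbered 4 of 6 in BLM_EHP, 5 of 6 in BLM_AJA and 4 of 6 in BLM. Of all genes tested, 5.46% were at least 2-fold higher in BLM_EHP, 4.41% in BLM_AJA and 7.75% in BLM. Because this contrast chose the members, nothing is read from the excess. Together the members took 1.26% of all counts in BLM_EHP, 1.80, 1.43 and 1.27% in BLM_AJA, 1.39% in BLM and 0.582% in control.

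**Figure D1:**
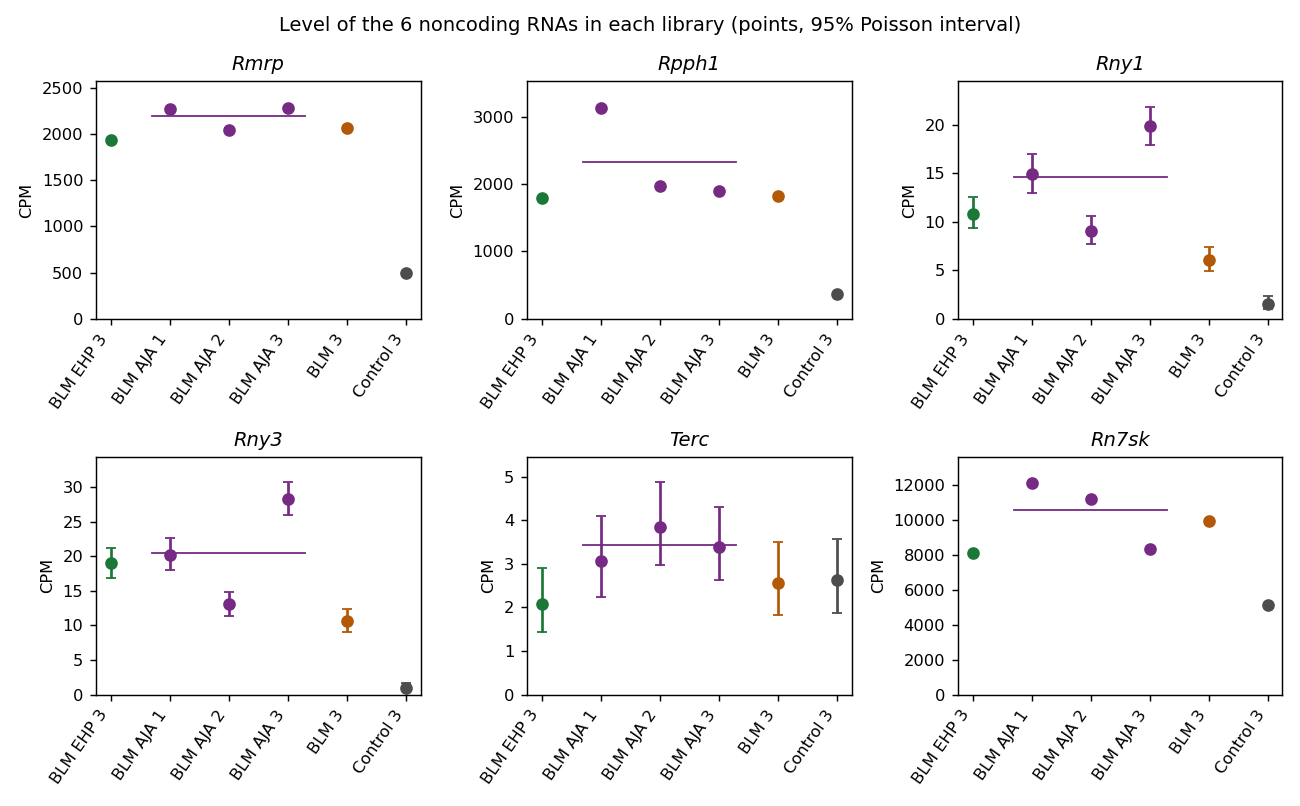
Level of each RNA in CPM, counts scaled to library size (vertical axis from 0), in each of the 6 libraries, with the 95% Poisson interval for counting error; the horizontal line is the mean of the 3 BLM_AJA libraries. Control is the lowest point for every RNA but Terc, and the Y RNAs spread widest among the BLM_AJA libraries.

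Rmrp was the steadiest of the abundant members outside control. It was at 1934 CPM in BLM_EHP, 2272, 2043 and 2277 CPM in BLM_AJA, 2065 CPM in BLM and 498 CPM in control. The 5 bleomycin libraries lay within 1.18-fold of each other and 3.89 to 4.58 times above control. The BLM_AJA mean was 2197 ± 133 CPM (SD, n = 3), and 14.8% of the genes tested had a smaller SD of log2 CPM in that group.

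Rpph1 stood at 1786 CPM in BLM_EHP, 3120, 1978 and 1902 CPM in BLM_AJA, 1829 CPM in BLM and 366 CPM in control. It was 4.88 to 8.52 times higher than in control, and BLM_AJA replicate 1 was well above the other libraries. Its BLM_AJA mean was 2333 ± 682 CPM (SD, n = 3). The related sequence Rprl2 was at 3.72 CPM in BLM_EHP, 4.50, 3.95 and 3.89 CPM in BLM_AJA, 3.59 CPM in BLM and 0.328 CPM in control, the last from 5 counts. Reads of Rprl2 and Rpph1 may have been shared, which was not tested.

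Within a library the ratio of Rpph1 to Rmrp, per exon length, does not depend on scaling between libraries. It was 0.781 in BLM_EHP, 1.16, 0.819 and 0.707 in BLM_AJA, 0.749 in BLM and 0.623 in control. Control was the lowest and BLM_AJA replicate 1 the highest.

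The Y RNAs were scarce, and Rny3 had the largest fold over control of the 6 members in every other library. Rny3 had 311 counts in BLM_EHP, 297, 228 and 567 in BLM_AJA, 166 in BLM and 15 in control. That was 19.0 CPM in BLM_EHP, 20.2, 13.1 and 28.3 CPM in BLM_AJA, 10.6 CPM in BLM and 0.985 CPM in control (95% Poisson interval 0.551 to 1.62). The libraries outside control were 10.8 to 28.7 times higher.

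Rny1 had 178 counts in BLM_EHP, 219, 159 and 398 in BLM_AJA, 95 in BLM and 24 in control. That was 10.9 CPM in BLM_EHP, 14.9, 9.11 and 19.8 CPM in BLM_AJA, 6.09 CPM in BLM and 1.58 CPM in control (95% Poisson interval 1.01 to 2.34). The libraries outside control were 3.87 to 12.6 times higher. For both Y RNAs replicate 3 was the highest and replicate 2 the lowest of the BLM_AJA group, and BLM was the lowest of the bleomycin libraries.

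Per exon length, Rny3 exceeded Rny1 in the bleomycin libraries. The ratio was 1.92 in BLM_EHP, 1.49, 1.58 and 1.57 in BLM_AJA and 1.92 in BLM, with the lowest bound of any interval at 1.25. In control it was 0.687, with an exact binomial interval of 0.335 to 1.36, wider than that of any other library relative to its value. The small counts in control thus limit what can be said of the pair there.

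**Figure D2:**
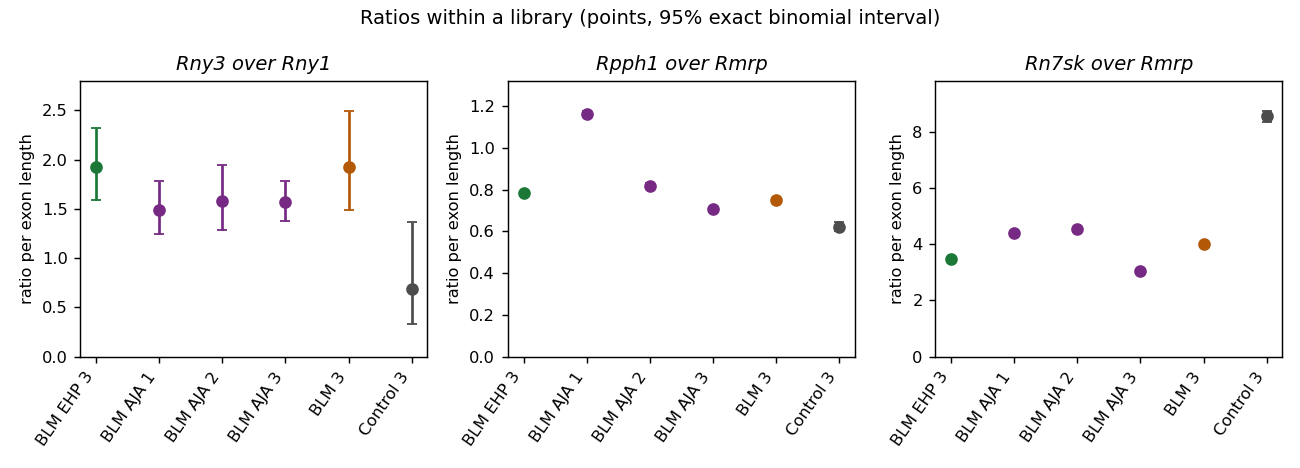
Ratios per exon length of Rny3 to Rny1, Rpph1 to Rmrp and Rn7sk to Rmrp within each library (vertical axes from 0), with exact 95% binomial intervals for counting error. Control has the lowest Rny3 to Rny1 ratio and the highest Rn7sk to Rmrp ratio, 8.56.

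Rn7sk was the most abundant member, at a mean of 27557 CPM per kilobase over the 6 libraries, against 6721 for Rmrp, 5632 for Rpph1, 152 for Rny3, 93.7 for Rny1 and 7.37 for Terc. It was at 8117 CPM in BLM_EHP, 12103, 11221 and 8344 CPM in BLM_AJA, 9965 CPM in BLM and 5142 CPM in control. The bleomycin libraries were 1.58 to 2.35 times higher than control, a smaller fold than for the RNase or Y RNAs. Per exon length, Rn7sk exceeded Rmrp by 3.48 times in BLM_EHP, by 4.41, 4.55 and 3.04 times in BLM_AJA, by 4.0 times in BLM and by 8.56 times in control. The intervals of these ratios cover counting error only, and the members were chosen by their control values.

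Terc did not share the low control level. It had 34 counts in BLM_EHP, 45, 67 and 68 in BLM_AJA, 40 in BLM and 40 in control. That was 2.07 CPM in BLM_EHP, 3.07, 3.84 and 3.39 CPM in BLM_AJA, 2.57 CPM in BLM and 2.63 CPM in control (95% Poisson interval 1.88 to 3.58). The control library lay between BLM and the lowest BLM_AJA library. Its counts of 34 to 68 leave wide intervals and limit what can be said of small differences.

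In order of exon length, the fold over control was largest for Rny3 and was smallest for Rn7sk and Terc, the longest. The order was not strict: in BLM, Rny1 at 3.87-fold lay below Rmrp at 4.15-fold and Rpph1 at 4.99-fold. Since the members are 6 chosen genes, this is a description only.

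**Figure D3:**
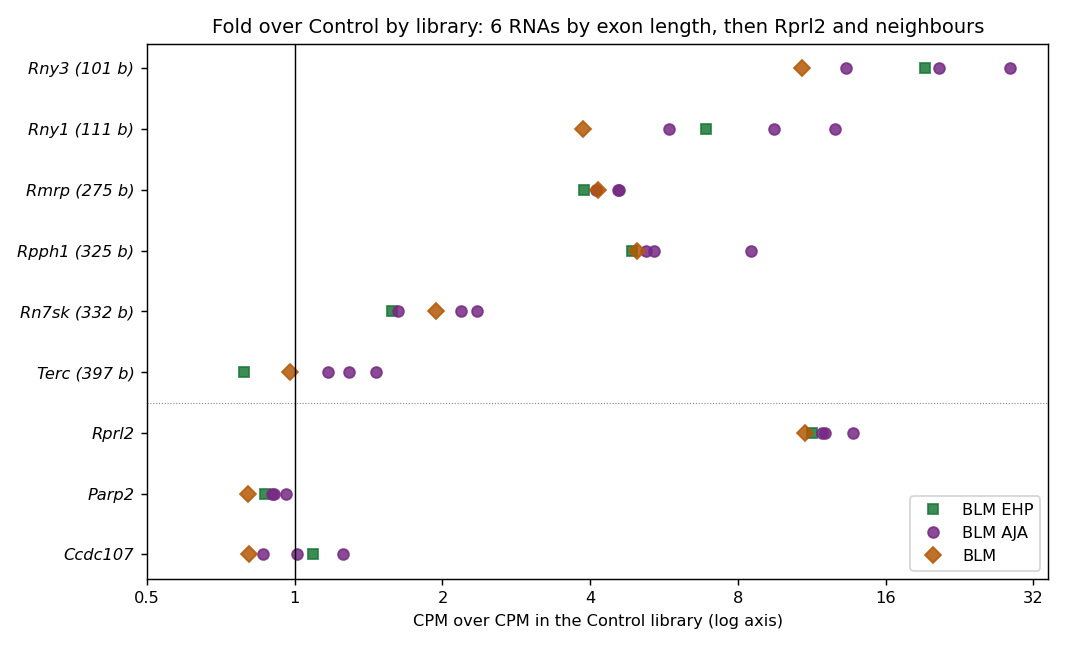
CPM of each library outside control divided by CPM in the control library (log axis; 1 is marked) for the 6 RNAs ordered by exon length in bases, and for Rprl2, Parp2 and Ccdc107. The RNAs run from 28.7-fold in Rny3 to 0.789-fold in Terc, and the 2 opposite-strand neighbours stay between 0.803 and 1.26. Ccnb1ip1, the same-strand neighbour of Rpph1, is not drawn and ran from 1.38 to 2.40.

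Rmrp and Rpph1 each have a protein-coding gene that starts close by on the opposite strand, and the levels of these neighbours are given below. The promoter table used here holds no window for the members, but the RefSeq windows (GRCm38.p6) of the neighbours hold sequence upstream of both, although that of Ccdc107 leaves out the bases next to the start of Rmrp. They are shown because RNA polymerase III genes of this kind are driven from upstream elements, and the octamer ATGCAAAT (reverse complement ATTTGCAT), a known site of the Oct-1 factor, is in capitals. The window of Ccdc107 is chr4:43493115-43493414 and that of Parp2 is chr14:50807666-50807965, both on the plus strand, opposite to the RNA genes.
Ccdc107: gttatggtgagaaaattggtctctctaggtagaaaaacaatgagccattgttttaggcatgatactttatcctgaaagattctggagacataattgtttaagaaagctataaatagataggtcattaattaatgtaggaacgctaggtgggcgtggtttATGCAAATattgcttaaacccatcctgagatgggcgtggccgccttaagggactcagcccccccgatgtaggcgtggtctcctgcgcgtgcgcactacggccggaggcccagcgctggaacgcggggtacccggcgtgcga
Parp2: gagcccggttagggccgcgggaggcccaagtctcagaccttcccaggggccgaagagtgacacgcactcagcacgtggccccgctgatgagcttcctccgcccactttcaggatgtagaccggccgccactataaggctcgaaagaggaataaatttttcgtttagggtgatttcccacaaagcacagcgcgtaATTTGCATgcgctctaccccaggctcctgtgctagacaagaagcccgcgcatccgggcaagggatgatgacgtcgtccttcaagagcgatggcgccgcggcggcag
Searched on both strands, the octamer lay 215 bases upstream of the counted start of Rmrp and 89 bases upstream of that of Rpph1. It occurred in 1.74% of the 32851 windows in the table. A match is a description and not a shown binding site.

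Parp2, a DNA damage-responsive poly(ADP-ribose) polymerase, was at 20.6 CPM in BLM_EHP, 21.5, 21.3 and 22.7 CPM in BLM_AJA, 19.0 CPM in BLM and 23.6 CPM in control. Ccdc107 was at 5.37 CPM in BLM_EHP, 4.97, 6.19 and 4.24 CPM in BLM_AJA, 3.98 CPM in BLM and 4.93 CPM in control. Against control the fold of Parp2 ran from 0.803 to 0.959 and that of Ccdc107 from 0.807 to 1.26. For these opposite-strand neighbours control was the highest library (Parp2) or lay within the range of the others (Ccdc107). Ccnb1ip1, which holds Rpph1 on the same strand in GENCODE, was lowest in control: it was at 1.59 CPM in BLM_EHP, 1.09, 1.49 and 1.89 CPM in BLM_AJA, 1.09 CPM in BLM and 0.788 CPM in control, from 12 to 38 counts. Its fold over control ran from 1.38 to 2.40, and whether it shares reads with Rpph1 was not tested.

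Some classes of short noncoding RNA were also low in control, and others were not. Small nucleolar and Cajal body RNAs guide modification of ribosomal and spliceosomal RNA, and 83 of 123 were tested. Of the 83, 28 were at least 2-fold higher in BLM_EHP than in control, 31 in BLM_AJA and 27 in BLM. The shares of all genes tested were 5.46, 4.41 and 7.75%, in the same order. Median log2 fold changes of the 83 were 0.50 in BLM_EHP, 0.67 in BLM_AJA and 0.41 in BLM, beside 0.00, 0.04 and -0.01 over all genes tested. Control was the lowest library for 44 of the 83, beside 22% of all genes. The summed level of all 123 was 660 CPM in BLM_EHP, 795, 728 and 736 CPM in BLM_AJA, 749 CPM in BLM and 242 CPM in control. The sum was lowest in control, the library by which the members were chosen, and ran from 660 to 795 CPM in the others. It weighs abundant RNAs most: Snora73a, Snord17 and Scarna10 were at 178, 172 and 79.5 CPM in BLM. Their log2 fold changes in BLM against control were 1.57, 4.25 and 2.75 in that order. Of the 83 RNAs, 21 had a negative log2 fold change in BLM_EHP against control, 14 in BLM_AJA and 27 in BLM. The part of the sum in the result was not tested.

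Among the small nucleolar and Cajal body RNAs the fold over control was larger for longer ones, unlike the order among the members. In BLM against control the median log2 fold change was 1.62 over 8 RNAs of 150 bases or more, 0.65 over 28 of 100 to under 150 bases and 0.10 over 47 of under 100 bases. The first of these groups is small. The 162 other tested genes with at most 400 exon bases, 68 of them miRNAs, had median log2 fold changes against control of -0.24 in BLM_EHP, -0.05 in BLM_AJA and -0.19 in BLM. Control was the lowest library for 26 of the 162, beside 22% of all genes. Of the 162, 57 were protein-coding, with medians of -0.53 in BLM_EHP, -0.32 in BLM_AJA and -1.07 in BLM. Of the 57, 1, 2 and 2 were at least 2-fold higher than in control, in the same order. Of 7 spliceosomal and related small RNAs tested (17 in the table), 5 were at least 2-fold higher than in control in BLM_EHP, 5 in BLM_AJA and 4 in BLM. Of all genes tested, 5.46, 4.41 and 7.75% were, in the same order. The 7 include Rnu3a, whose U3 RNA acts in ribosomal RNA processing.

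By level per length, the leading other short RNAs were Scarna10, Snora73a, the U3 RNA gene Rnu3a, Scarna2 and Snord17. Scarna10 was at 61.0 CPM in BLM_EHP, 100, 90.4 and 76.1 CPM in BLM_AJA, 79.5 CPM in BLM and 11.8 CPM in control. Rnu3a, whose product acts in ribosomal RNA processing, was at 82.4 CPM in BLM_EHP, 95, 33.9 and 100 CPM in BLM_AJA, 56.7 CPM in BLM and 4.79 CPM in control. As with the Y RNAs, replicate 3 was its highest and replicate 2 its lowest BLM_AJA library. Scarna2 was closer, at 31.9 CPM in BLM_EHP, 33.6, 49.5 and 32.1 CPM in BLM_AJA, 36.4 CPM in BLM and 25.7 CPM in control. Snora73a and Snord17 had log2 fold changes of 1.15 and 3.85 in BLM_EHP, 1.53 and 3.76 in BLM_AJA, and 1.57 and 4.25 in BLM, all against control.

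The genes most like the members over the 6 libraries were sought among 12759 others whose log2 CPM averaged 2 or more. Likeness was the root mean square difference from the members' mean profile in centred log2 CPM, and all libraries weigh equally. That profile was -1.70 in control and 0.02 to 0.62 in the other libraries. Likeness thus rests largely on the low level in 1 library, by which the members were chosen, and is a description only. The closest was Snord22, at 0.14, followed by Snord15a at 0.19 and Snord15b at 0.20. The interferon-induced Oas3 (0.24) and Ifi44 (0.29), the neutrophil receptor Csf3r (0.28), Scarna6 (0.29), Snora68 (0.30), the macrophage scavenger receptor Msr1 (0.30) and the metalloproteinase inhibitor Timp1 (0.31) made up the 10. The members' own distances ran from 0.15 for Rmrp to 0.75 for Terc and 0.76 for Rny3. Snord22 was at 27.3 CPM in BLM_EHP, 40.1, 28.2 and 29.0 CPM in BLM_AJA, 24.2 CPM in BLM and 7.55 CPM in control.

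The protein partners had smaller median fold changes against control than the RNAs. The RNAs were chosen as a set by low control values, so nothing is read from this difference. Of 12 proteins of RNase P and RNase MRP, 10 had a negative log2 fold change in BLM_EHP against control, 9 in BLM_AJA and 10 in BLM, with medians of -0.18, -0.11 and -0.28. For 12 Ro and Y RNA binding proteins the medians were 0.10, 0.12 and 0.02 in the same order, and for 12 telomerase proteins -0.09, -0.06 and -0.30. They were 0.17, 0.13 and 0.03 for 9 proteins of the 7SK and P-TEFb complexes, and -0.01, 0.02 and -0.11 for 32 subunits and factors of RNA polymerase III. For 10 long nuclear noncoding RNAs the medians were 0.17, 0.03 and 0.08. Control was the lowest library for 5 of the 12 Ro and Y RNA binding proteins, 3 of the 9 7SK proteins, 4 of the 32 RNA polymerase III genes, 2 of the 10 long nuclear RNAs, 1 of the 12 telomerase proteins and 0 of the 12 RNase proteins, beside 22% of all genes. In none of these 6 lists did edgeR's quasi-likelihood test call a gene in any comparison (adjusted p under 0.05). Over all 17377 genes tested it called 6, in BLM_AJA against control, and 0 in every other comparison. The lack of calls is therefore not particular to these lists.

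**Figure D4:**
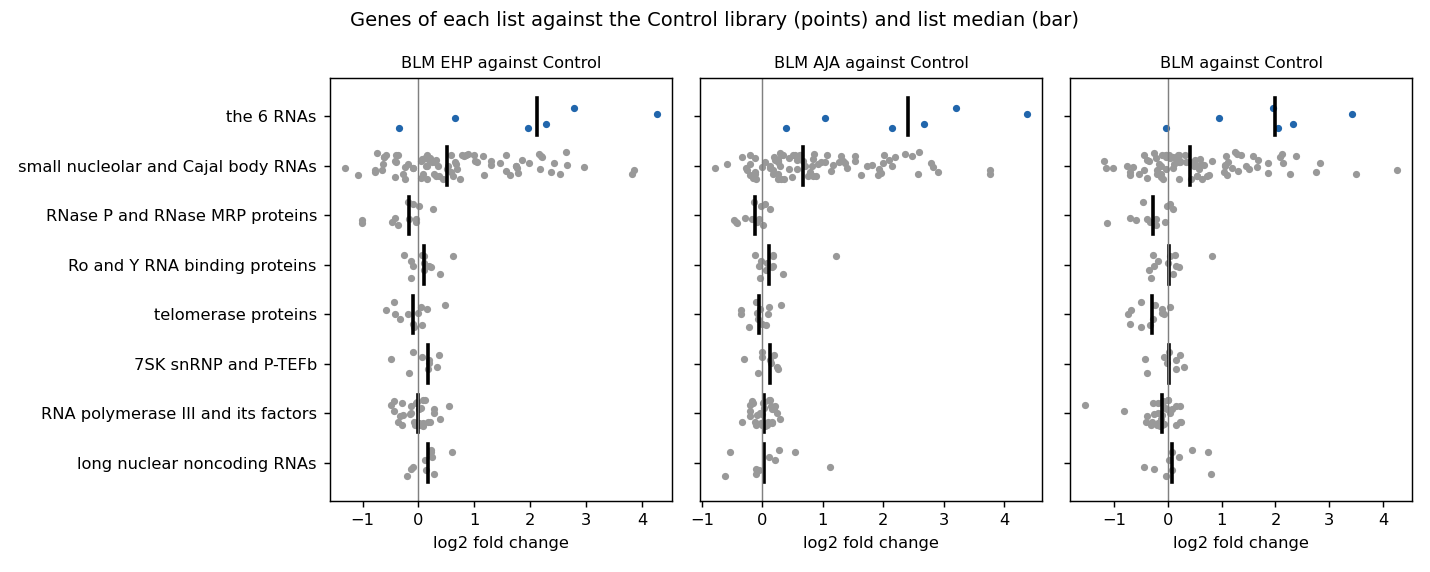
Fitted log2 fold changes against control (horizontal axes) of the genes of each list, 1 panel per comparison, with the list median as a bar. The median of the 6 RNAs, chosen as a set by low control values, is 2.12 in BLM_EHP, 2.41 in BLM_AJA and 2.0 in BLM. The medians of the protein lists, not chosen in that way, lie between -0.30 and 0.17.

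The remaining comparisons lie among the bleomycin libraries and do not involve control, so here the members were tested. In BLM_EHP against BLM, both Y RNAs had higher values in BLM_EHP and the other 4 members lower ones; 50% of all genes were higher in BLM_EHP. The log2 fold change was 0.83 (SE 0.58) for Rny1 and 0.83 (SE 0.56) for Rny3, with 95% intervals of -0.68 to 2.35 and -0.63 to 2.30. It was -0.09 (SE 0.26) for Rmrp, -0.03 (SE 0.44) for Rpph1, -0.31 (SE 0.42) for Terc and -0.30 (SE 0.39) for Rn7sk. None of the 6 passed edgeR's quasi-likelihood test with Benjamini-Hochberg adjustment over all genes (adjusted p = 0.9998 for each), and 0% of all genes did. Without adjustment, 100 genes were higher and 229 lower at p under 0.05 by edgeR, none of them members. The calls after adjustment were 2 higher and 8 lower by DESeq2 and 0 by limma.

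In BLM_AJA against BLM all 6 log2 fold changes were positive. For Rpph1, Rny1, Rny3 and Terc all 3 BLM_AJA libraries lay above BLM, which held for 22.9% of all genes tested. The largest was that of Rny1, 1.26 (SE 0.51), with an interval of -0.06 to 2.58, an unadjusted p = 0.0571 and an adjusted p = 0.998 by edgeR. Rny3 followed at 0.95 (SE 0.48), with an interval of -0.31 to 2.20. Terc was at 0.42 (SE 0.34), Rpph1 at 0.35 (SE 0.37), Rmrp at 0.09 (SE 0.21) and Rn7sk at 0.08 (SE 0.32). None passed, and 0% of all genes did; without adjustment edgeR gave p under 0.05 for 108 higher and 558 lower genes. After adjustment DESeq2 gave 4 higher and 99 lower, and limma 0. The 162 other short genes had median log2 fold changes of 0.19 in BLM_AJA and 0.15 in BLM_EHP against BLM, with 66 and 65 of them negative. The 57 protein-coding ones among them had medians of 0.66 and 0.57 in the same order. The 83 small nucleolar and Cajal body RNAs had medians of 0.27 and 0.05. Whether the values of short genes and the low hepatocyte markers of BLM_AJA play a part in the values of the Y RNAs was not tested.

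BLM_EHP and BLM_AJA, the 2 treatments, were compared with doses unknown. All 6 log2 fold changes were negative, and BLM_EHP lay below all 3 BLM_AJA libraries for Rmrp, Rpph1, Terc and Rn7sk, as it did for 19.8% of all genes. Terc differed most, at -0.73 (SE 0.35), with an interval of -1.63 to 0.18 and an unadjusted p = 0.0939 (adjusted p = 0.99995, edgeR). The others were -0.43 (SE 0.48) for Rny1, -0.39 (SE 0.37) for Rpph1, -0.38 (SE 0.32) for Rn7sk, -0.18 (SE 0.21) for Rmrp and -0.11 (SE 0.45) for Rny3. None passed and 0% of all genes did. By edgeR without adjustment 343 genes were higher and 69 lower at p under 0.05, while DESeq2 after adjustment gave 63 and 1, and limma 0. These 3 comparisons share libraries and are not independent of each other. In each of the 3, fewer genes had an unadjusted edgeR p under 0.05 than the share of 0.05 that would if no gene differed.

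**Figure D5:**
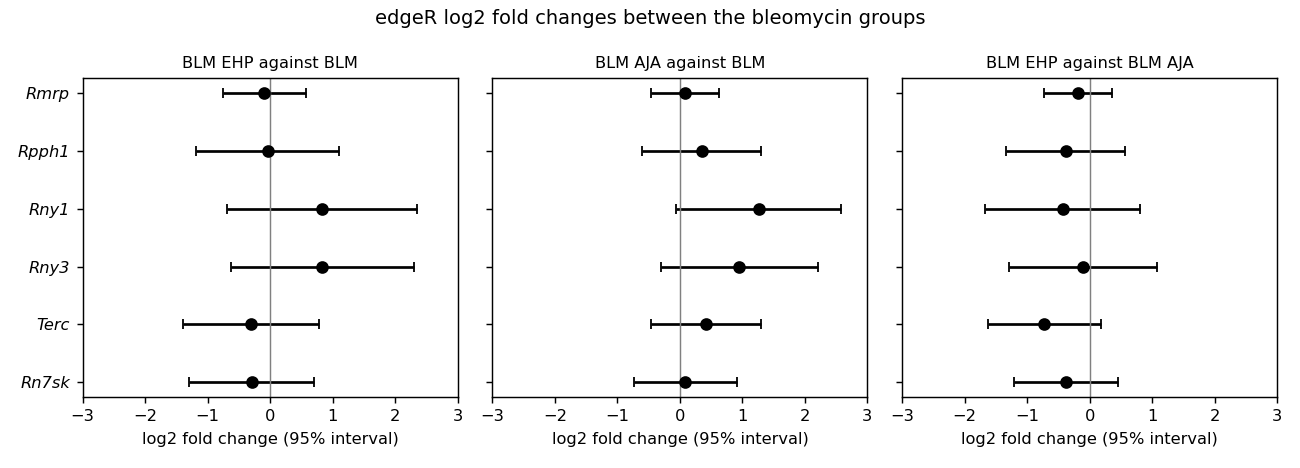
Log2 fold changes of the 6 RNAs between the bleomycin groups (horizontal axes) with 95% intervals from edgeR's quasi-likelihood fit. Every interval includes 0; the widest are those of the Y RNAs, and the interval of Rny1 in BLM_AJA against BLM starts at -0.06.

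No protein partner was called between the bleomycin groups by edgeR either. In BLM_AJA against BLM all 12 telomerase proteins had a positive log2 fold change, with a median of 0.30 beside 0.02 over all genes, and none passed. The reverse transcriptase Tert was at 2.99 CPM in BLM_EHP, 2.52, 2.92 and 4.09 CPM in BLM_AJA and 1.99 CPM in BLM, and Wrap53, which takes telomerase to Cajal bodies, at 9.51, then 9.75, 8.54 and 10.4, and 7.25 CPM in the same order. In BLM against control, 11 of the 12 telomerase proteins and 24 of the 32 RNA polymerase III genes were negative. The comparisons with BLM share that 1 library, and 50% of all genes were higher in BLM_EHP than in it. Of the 32 RNA polymerase III genes, 27 were positive in BLM_AJA and 24 in BLM_EHP against BLM, with medians of 0.15 and 0.09. Gtf3a, the 5S-specific factor TFIIIA, had the largest value named there, 1.32 (SE 0.56, adjusted p = 0.998 by edgeR) in BLM_AJA, from 2.32, 2.23 and 4.09 CPM in BLM_AJA against 1.15 CPM in BLM. The TFIIIC subunit Gtf3c5 was at 18.1 CPM in BLM_EHP, 17.4, 16.6 and 16.7 CPM in BLM_AJA and 12.8 CPM in BLM.

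The medians of the RNase proteins in BLM_EHP and BLM_AJA against BLM were 0.03 and 0.08, of the Ro and Y RNA binding proteins 0.05 and 0.16, and of the 7SK proteins 0.04 and 0.07. Among the last, Hexim1 was at 42.6 CPM in BLM_EHP, 43.9, 37.4 and 43.4 CPM in BLM_AJA and 37.2 CPM in BLM. Among long nuclear RNAs, the imprinted Rian had the smallest unadjusted p, 0.0356, in BLM_AJA against BLM (log2 fold change -0.58, SE 0.20, adjusted p = 0.998 by edgeR), and Meg3 of the same imprinted cluster had -0.61 (SE 0.27). The median of that list was -0.15 in BLM_AJA and 0.04 in BLM_EHP. The tests take the spread of every group from the 3 BLM_AJA libraries, with 2 residual degrees of freedom.

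Whether the low control level holds in other control animals was not analysed here. The control group is 1 library, so a feature of control skin and a feature of that library cannot be told apart. In tissue, fewer cells that make an RNA and less of it per cell cannot be told apart either.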

How the data were processed

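Total RNA from frozen mouse skin was column-purified, and 300 ng per sample went into stranded libraries depleted of ribosomal RNA, read as single ends of 50 bp, per the labels' protocols. Such preparation can retain short RNAs unequally between samples, which was not tested. The build mm10 and the tools featureCounts 1.6.1, HISAT2 2.1.0, Trimmomatic 0.36 and DESeq2 1.20.0 were named, per the submitters' processing notes. The authors deposited raw counts per gene; the sources used here state neither the strand setting nor how reads matching in several places were treated. A merged table held the same counts (0 differing values), and its 6 columns of other samples were not used.

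Symbols were found for 25275 of 27179 gene numbers in RefSeq. edgeR 4.0.16 (R 4.3.3) was run with filterByExpr (minimum count 10), TMM scaling and robust two-sided quasi-likelihood tests in 1 fit of 6 libraries; p-values were adjusted by Benjamini-Hochberg over 17377 genes, and 0.05 was the threshold. SE is the log2 fold change over the root of F. CPM were taken over TMM-scaled library sizes, and 95% intervals of single libraries cover counting error only. A prior count of 3 was used for log2 CPM profiles. The scripts were tested on simulated data, for BLM_AJA against BLM only and with changes larger than the members had there. Alternatives were DESeq2 1.42.0, limma-trend (limma 3.58.1), other scalings, library sizes and filters, no robust option, and leaving out each BLM_AJA library.

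The members and lists were chosen with earlier results of these data known. Beside the members, the text names the 10 most similar genes, the 5 short RNAs of highest level per length, and partners among the 2 of smallest p per list and comparison. Neighbours and Rprl2 were added after their values were seen.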

Additional observations from a re-analysis of the deposited data

How the results depend on the processing

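No member was called between bleomycin groups under any of the 13 alternatives; the smallest adjusted p was 0.132, for Rny1 in BLM_AJA against BLM without BLM_AJA replicate 2. Of 462 recomputed log2 fold changes 458 held: between bleomycin groups they kept their direction and side of the threshold, and against control they moved by less than 1 SD. Part of this tally was fixed in advance, so it does not measure robustness. Dropping the robust option left the fold changes as they were. Leaving out a BLM_AJA library reached comparisons without that group only through the shared fit. Rpph1 in BLM_EHP against BLM became 0.044 with plain library totals, Rn7sk in BLM_AJA against BLM ran from -0.027 without BLM_AJA replicate 1 to 0.23 without replicate 3, and Rny3 in BLM_EHP against BLM_AJA from -0.34 without replicate 2 to 0.19 without replicate 3. The cause was not tested. Rmrp in BLM_EHP against control became 2.09 with plain library totals, a move of more than 1 SD, and Terc in BLM against control, near 0, became 0.017. Without 1 BLM_AJA library the log2 fold change in BLM_AJA against BLM ran from 0.98 to 1.52 for Rny1 and from 0.64 to 1.20 for Rny3. Members at least 2-fold higher than control numbered 3 to 4 in BLM_EHP, 4 to 5 in BLM_AJA and 3 to 5 in BLM; the lowest counts came from a filter of 1 CPM in every library, which removes Rny3, and in BLM_AJA also from leaving out replicate 1 or 2. Calls over all genes in BLM_AJA against BLM were 7 higher and 62 lower without replicate 2, 2 and 90 without replicate 3, and 0 and 41 with no filter; in BLM_EHP against BLM_AJA they were 18 and 0, 65 and 2, and 16 and 0 under the same settings. No paired analysis was possible because the groups compared share fewer than 2 replicate numbers. Counts of 15 to 68 limit Terc and the Y RNAs in control.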
